A study of Mus musculus with 4 samples.

Results

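The regions described here are stretches of open chromatin that were called in both early thymocytes and naive CD4 T cells of the mouse, but stood out more from their surroundings in the thymocytes. They were found by joining the peak lists of 4 ATAC-seq libraries wherever peaks overlapped by at least 1 bp on chromosomes 1 to 19 and X. This gave 90270 joint regions, of which 37418 held a peak in all 4 lists and are called common regions. Each library's value in a region was the highest fold of its peaks there, divided by the median fold of that list. The fold compares the fragments at a peak's summit with the local background of the same library. A common region was taken when the lower of the DN3 values was at least 1.5 times the higher of the naive values. The rule took 3909 regions, which is 10.4% of the common regions, and they are called members below. The mirrored rule, for naive cells, took 1138 regions, or 3.04%. Both counts depend on the division by list medians. These were 6.82 and 6.63 in the control and Scd1-deficient DN3 lists, and 7.68 and 7.95 in the naive ones. With undivided folds the rule took 2130 regions. The mirrored count was not taken that way, so the gap between the counts is not read as a cell type difference.

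In ATAC-seq the transposase Tn5 cuts accessible DNA and adds sequencing adapters, so reads pile up over promoters and enhancers that are free of nucleosomes. DN3 cells are thymocytes at the stage where T cell commitment is complete and the T cell receptor beta chain is being assembled and tested. They lack CD4 and CD8, carry CD25 and depend on Notch signals, on E proteins such as E2A and HEB, and on RUNX, ETS and Ikaros factors. Naive CD4 T cells have passed selection, have left the thymus and circulate in a resting state set by factors such as KLF2, FOXO1, FOXP1 and BACH2. They carry the lymph node homing receptor CCR7, the egress receptor S1PR1 and the survival receptor IL-7R. A region that is open in both stages can belong to a shared T cell programme or to genes used in most cells.

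The study compared Scd1-deficient mice, which lack a stearoyl-CoA desaturase that forms monounsaturated fatty acids, with littermate controls. DN3 cells came from the thymus by magnetic depletion of lineage and CD4 cells and a flow sort of CD44-negative, CD25-positive cells that also lacked lineage markers, CD4 and CD8. Naive CD4 T cells came from the spleen through a magnetic bead kit, and no cell was treated. The 4 groups were DN3 cells of controls, DN3 cells of Scd1-deficient mice, naive CD4 T cells of controls and naive CD4 T cells of Scd1-deficient mice, with 1 library each. Controls bear the letters HZ in their titles without an explanation, so they may not be wild type. The labels give neither the ages nor how many animals a library holds, nor which part of Scd1 is missing. Cell type and tissue of origin go together in this design and cannot be told apart, and no p-value is given. Values below stand in the order DN3 control, DN3 Scd1-deficient, naive control and naive Scd1-deficient unless a sentence says otherwise.

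The sequences below are the 250 bases upstream of annotated gene starts, 5′ to 3′ on the strand of the gene, from RefSeq (GRCm38.p6, the assembly of mm10). Each lies within a member. Igsf10, Dnah7c, 9130008F23Rik and Fam13a had the highest ratios of the named genes with such a stretch, from 3.69 to 3.99, and Ifng and Ccr9 are T cell genes whose members also held more fragments in DN3. Il7r is shown as a case where the fragments went the other way. Capitals mark the E box letters CAGCTG or CACCTG, the RUNX letters TGTGGT and the ETS letters CCGGAA, each read on either strand, so CAGGTG stands for CACCTG and ACCACA for TGTGGT.
Igsf10 (chr3:59344257-59344506, minus strand): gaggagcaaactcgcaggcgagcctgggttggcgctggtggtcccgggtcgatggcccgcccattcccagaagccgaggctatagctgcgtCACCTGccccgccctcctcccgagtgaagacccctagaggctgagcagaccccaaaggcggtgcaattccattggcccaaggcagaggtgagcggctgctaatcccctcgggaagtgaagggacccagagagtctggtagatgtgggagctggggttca
Dnah7c (chr1:46425268-46425517, plus strand): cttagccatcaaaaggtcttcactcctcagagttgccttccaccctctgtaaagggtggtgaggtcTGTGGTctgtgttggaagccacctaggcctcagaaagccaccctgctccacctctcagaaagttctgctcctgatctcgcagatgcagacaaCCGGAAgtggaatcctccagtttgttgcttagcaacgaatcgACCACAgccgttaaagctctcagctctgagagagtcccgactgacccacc
9130008F23Rik (chr17:40880559-40880808, minus strand): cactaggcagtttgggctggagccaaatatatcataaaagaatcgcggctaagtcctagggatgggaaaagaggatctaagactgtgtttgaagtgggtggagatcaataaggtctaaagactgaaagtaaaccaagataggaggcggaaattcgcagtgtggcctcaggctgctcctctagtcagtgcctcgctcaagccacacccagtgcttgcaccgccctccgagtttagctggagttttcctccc
Fam13a (chr6:59024503-59024752, minus strand): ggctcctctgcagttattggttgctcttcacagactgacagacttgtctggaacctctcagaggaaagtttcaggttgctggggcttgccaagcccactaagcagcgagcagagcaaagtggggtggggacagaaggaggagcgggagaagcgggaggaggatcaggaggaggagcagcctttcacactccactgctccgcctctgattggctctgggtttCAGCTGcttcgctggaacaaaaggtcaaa
Ifng (chr10:118440796-118441045, plus strand): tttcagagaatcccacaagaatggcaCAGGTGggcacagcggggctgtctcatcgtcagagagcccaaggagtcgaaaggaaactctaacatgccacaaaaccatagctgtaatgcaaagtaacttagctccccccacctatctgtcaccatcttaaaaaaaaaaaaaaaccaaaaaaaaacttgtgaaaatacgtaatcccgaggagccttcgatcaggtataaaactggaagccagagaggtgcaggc
Ccr9 (chr9:123766961-123767210, plus strand): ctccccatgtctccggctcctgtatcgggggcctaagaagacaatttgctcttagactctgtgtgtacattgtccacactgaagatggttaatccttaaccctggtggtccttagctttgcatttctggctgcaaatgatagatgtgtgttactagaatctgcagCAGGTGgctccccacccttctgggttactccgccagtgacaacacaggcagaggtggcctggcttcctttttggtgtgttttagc
Il7r (chr15:9529877-9530126, minus strand): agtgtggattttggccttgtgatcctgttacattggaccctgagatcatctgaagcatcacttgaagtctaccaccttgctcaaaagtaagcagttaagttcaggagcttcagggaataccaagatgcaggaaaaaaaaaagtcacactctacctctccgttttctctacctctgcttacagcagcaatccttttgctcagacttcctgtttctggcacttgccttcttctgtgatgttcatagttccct

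Most of these genes had few CpG at the start. The ratio of observed to expected CpG in the full 300-base windows was 0.483 for Igsf10, 0.408 for Dnah7c, 0.524 for 9130008F23Rik, 0.273 for Fam13a, 0.443 for Ifng, 0.203 for Ccr9 and 0.0647 for Il7r. At Steap1, whose member came next but one in ratio and is not printed, it was 0.845. The Ifng and Ccr9 stretches held the E box letters CACCTG 1 time each. The Dnah7c stretch held the RUNX letters in 2 places and the ETS letters in 1, and the Il7r and 9130008F23Rik stretches held none of these letters. A match describes the letters and is not evidence of binding.

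The members' folds were near 10 in DN3 and near 5 in naive cells. Their median fold was 9.795, 9.776, 4.762 and 5.372, against 8.978, 8.92, 8.74 and 9.643 over all common regions. The members were chosen by these folds in all 4 libraries, so the values are a description only. The ratio of the lower DN3 to the higher naive value had a median of 1.796 and an interquartile range of 1.617 to 2.12. It reached 2 in 1251 members, 3 in 162 and 4 in 18, with a highest value of 5.755. Just inside the threshold lay regions in Gse1 (1.50002) and Itpr3 (1.50014) and one nearest to Egfl7 (1.50018). Just outside were regions in Prkce (1.499998) and nearest to Ms4a8a and Adamts20 (1.49996 each).

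**Figure D1:**
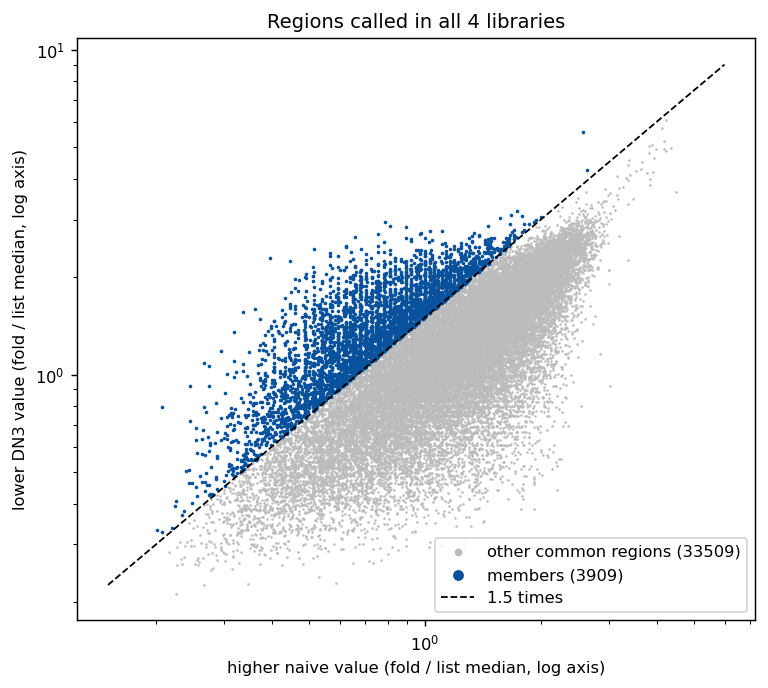
Each point is 1 of the 37418 common regions, with the higher naive value on the horizontal and the lower DN3 value on the vertical log axis, both as fold divided by the list median. The 3909 members, in blue, lie on or above the dashed line of 1.5 times by construction, and they run on from the cloud of other common regions with no gap.

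The 20 members with the highest ratios lay mostly inside or between genes, and Ikzf1 and Fyn were the T cell genes among those nearest. First came a region on chromosome 7 from 125511410 to 125512526 (mm10), between genes and 19967 bp from Nsmce1, a subunit of the SMC5/6 complex of DNA repair. Its fold was 15.5, 16.1, 2.82 and 3.15, and its summit held 196, 201, 75 and 53 fragments. The second lay inside Rcl1, 893 bp from an end of that gene, a gene of ribosomal RNA processing, with 263, 229, 20 and 15 fragments at its summit. Both DN3 libraries stood well above both naive libraries in each case. Next were a region between genes nearest to Tarbp1, an RNA methyltransferase gene, and one inside Ikzf1, the gene of Ikaros. The Ikzf1 region, on chromosome 11 from 11762936 to 11763771, had a fold of 10.6, 10.7, 2.42 and 2.67 and 193, 192, 102 and 71 summit fragments. Others lay inside Stt3b, an oligosaccharyltransferase of the endoplasmic reticulum, inside Peli2, a ubiquitin ligase of innate signalling, and inside Nipbl, the cohesin loader. A region 88569 bp from Fyn, a kinase of T cell receptor signalling, had 83, 86, 22 and 14 fragments. Scd2, a desaturase gene next to Scd1, held a member with a fold of 7.37, 7.35, 1.84 and 2.12 and 109, 116, 33 and 38 fragments. In 19 of these 20 members both DN3 summits held more fragments, relative to the genome-wide background, than both naive summits. The exception, at Ubac2, is taken up below.

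**Figure D2:**
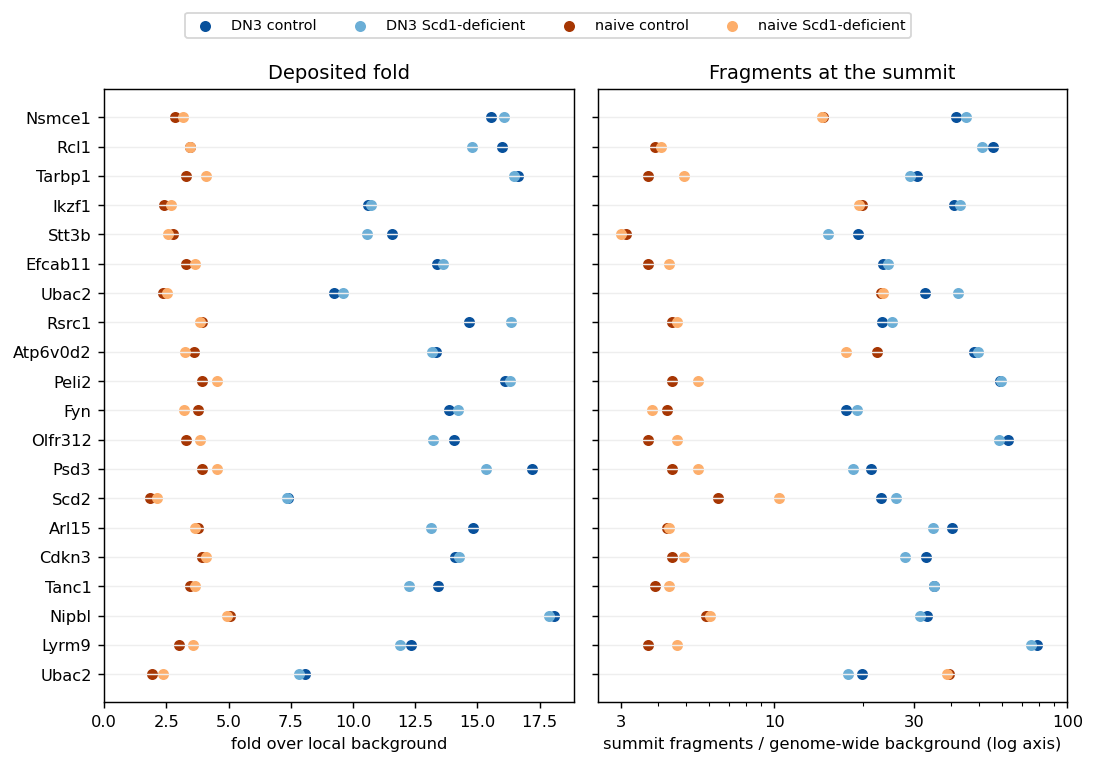
The 20 members with the highest ratio are named by the gene that holds them or has the nearest end, with the deposited fold on the left (linear axis) and summit fragments over the library's genome-wide background on the right (log axis), 1 point per library. In the left panel both DN3 points lie to the right of both naive points in every row, and in the right panel the lower Ubac2 row has both naive points (202 and 142 fragments) to the right of both DN3 points (94 and 80).

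A higher fold can come with more fragments at the summit or with less local background, so both were read from the deposited statistics. The deposited fold and −log10 p of a peak together fix the count of fragments under its summit and the local background, and the lowest local background of a list served as the genome-wide one. It was 4.72, 4.47, 5.12 and 3.65 fragments. The median summit of the members held 114, 104, 41 and 36 fragments, or 24.2, 23.2, 8.01 and 9.85 times the genome-wide background. Naive summits of members were therefore low, while those in DN3 were close to the medians over all common regions, which were 27.7, 27.0, 26.6 and 30.1 times. The median local background of the members was 2.17 and 2.10 times the genome-wide one in DN3 and 1 time in both naive libraries. In 49.6% of the members the local background of both naive summits was within 1% of the genome-wide one, against 17.96% of all common regions. In DN3 both summits did so in 10.4% of members and 10.1% of common regions.

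By summit fragments over genome-wide background, both DN3 libraries were above both naive libraries in 3181 members (81.4%, Wilson 95% interval 80.1 to 82.6). Over all common regions this share was 29.4%. The order was mixed in 216 members. In 512 members (13.1%, 12.1 to 14.2) both naive summits held more fragments than both DN3 summits, against 53% of all common regions. So the label "stronger in DN3" held for all members as fold over local background but not as fragments at the summit. Where the fragments were also divided by each list's median, 89.6% of the members had more in DN3 and 6.17% more in naive cells, and over all common regions these shares became 50.6% and 27.1%. In the mirrored naive set 84.1% had more fragments in naive cells and 7.65% more in DN3, which became 72.0% and 18.01% with the list median. Fold and fragments come from the same peaks, so these shares describe the members and test nothing.

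**Figure D3:**
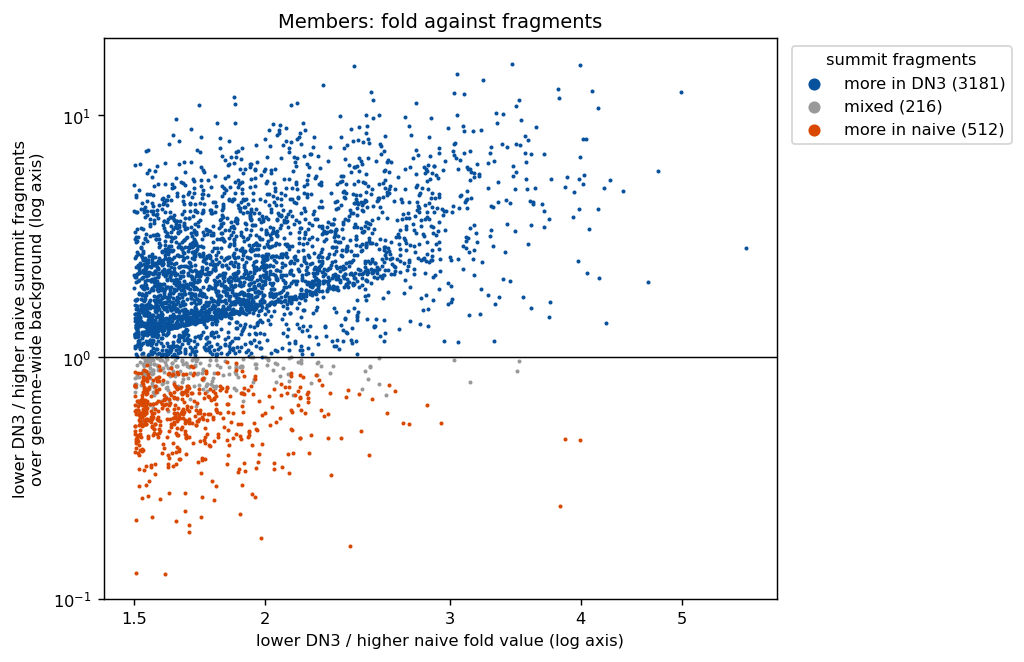
Each point is 1 member, with the fold ratio that chose it on the horizontal and the same ratio for summit fragments over genome-wide background on the vertical axis, both log axes. The 3181 blue members lie above the line at 1, while the 512 orange members lie below it although their fold ratio is at least 1.5.

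The 512 members with more naive fragments had a higher local background in naive cells. This follows from how they were chosen, since a lower naive fold with more naive summit fragments needs a higher naive local background. The values below describe these members and test nothing. Their median summit held 142.5 and 133.5 fragments in DN3 and 243 and 178.5 in naive cells. The median local background was 3.39 and 3.32 times the genome-wide one in DN3, and 10.04 and 9.18 times in naive cells. For the 3181 members with more DN3 fragments it was 2.01, 1.90, 1 and 1 times. Neighbouring peaks differed too, but they may add to the same local background and are no separate support. A region called in both naive lists and neither DN3 list lay within 10 kb of 48.6% of the 512 members, of 12.1% of the 3181 and of 11.6% of all common regions. A region called only in both DN3 lists lay within 10 kb of 18.4%, 32.5% and 31.7% of them. Among the 162 members with a ratio of at least 3, only 3 had more fragments in naive cells and 155 had more in DN3.

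Members were scarce at the ends of genes. Only 531 (13.6%, 12.55 to 14.69) lay within 1 kb of an annotated end of a protein-coding gene, against 31.6% of all common regions. Inside genes lay 1910 (48.9% against 38.6%) and between genes 1468 (37.6% against 29.8%). Read the other way, 4.48% of the common regions at gene ends were members, 13.2% of those inside genes and 13.2% of those between genes. The median distance to a gene end was 15287 bp for members and 7128 bp for common regions, and 20.2% of members against 13.5% lay over 50 kb from any. The mirrored naive set had a like layout, with 11.2% at gene ends. The members with more DN3 fragments were at gene ends in 13.3% and those with more naive fragments in 16.8%. By chromosome the share of common regions that were members ran from 8.30% on chromosome 7 to 12.2% on chromosome 6.

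**Figure D4:**
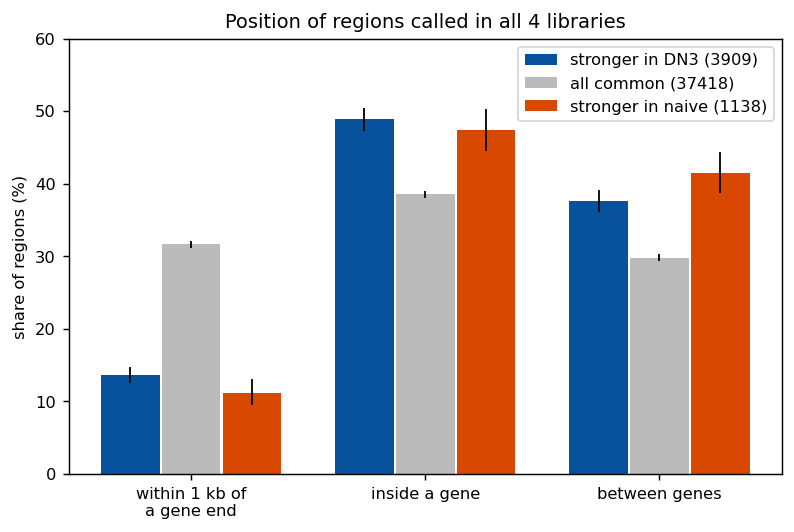
Bars give the share of regions within 1 kb of a gene end, inside genes and between genes for the 3909 members, all 37418 common regions and the 1138 common regions stronger in naive cells, with Wilson 95% intervals as error bars. Members have 13.6% at gene ends against 31.6% of all common regions, and the naive set has 11.2%.

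In 94.2% of members each list had 1 peak in the region, close to the 93.6% of common regions. In 63.2% all 4 summits lay within 100 bp of each other (69.5% of common regions). The median width of a member was 960 bp against 1136 bp. Neighbours were joined where the gap between them was small, in practice up to 12388 bp. The members then made 3640 groups, of which 3403 held 1 member, 214 held 2 and 23 held at least 3. Of all members, 87.1% stood alone.

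The largest group lay in Ptprc, the gene of CD45, the phosphatase that sets the threshold of T cell receptor signalling. Its 5 members spanned 24.7 kb of chromosome 1, from 138130236 to 138154928, and were all the common regions there. In 4 of them the naive summits held more fragments. The second of the 5 had 322, 330, 448 and 409 summit fragments and a fold of 11.8, 11.8, 6.95 and 8.53. The last had 228, 217, 121 and 84, so here DN3 was higher by both measures. At Vps37b, an ESCRT gene, and at Cytip, a regulator of cytohesin in lymphocytes, all 4 members of each group had more naive fragments. The Vps37b member with the most fragments had 320, 340, 774 and 518 at its summit over a local background of 42.6, 40.2, 168 and 107. A group of 4 at S1pr1 was of the same kind, and one of 4 at Fbxw11, a ubiquitin ligase subunit that acts on beta-catenin, had more DN3 fragments throughout. These last groups, beyond the 5 that the naming rule gives, were chosen after their values were seen.

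Of 15026 protein-coding genes with a common region in the body or within 10 kb, 2844 had a member there, which is 18.9%. Most of them, 2333, had 1 member, 382 had 2 and 129 had at least 3. Ubac2, an endoplasmic reticulum protein gene, and Foxp1, a quiescence factor of naive T cells, had 7 each, of 16 and 39 common regions. Rora, a nuclear receptor of innate lymphoid and Th17 cells, Fyn, Sgms1, a sphingomyelin synthase, and Ptprc had 6. Bach2, a repressor that restrains effector genes, Myh9, the non-muscle myosin heavy chain, Fbxw11 and Jak1, the kinase of common gamma chain receptors, had 5. At Rora, 5 of 6 members had more DN3 fragments and none had more in naive cells, and at Fbxw11 all 5 had more in DN3. In contrast, 5 of 7 at Ubac2, 5 of 6 at Ptprc and 4 of 5 at Bach2 had more in naive cells. Gene length and the number of common regions differ between these genes, and no gene is set apart by such a count.

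The Ubac2 members included wide gaps between fold and fragments. Gpr183, the receptor for oxysterols that guides lymphocytes, lies within the Ubac2 gene. At 121951449 to 121952135 on chromosome 14 the fold was 8.06, 7.83, 1.92 and 2.35, while the summit held 94, 80, 202 and 142 fragments. The local background was 10.8, 9.34, 105 and 59.9 fragments. The next member, over Gpr183, had 115, 104, 259 and 134 summit fragments. Farther on, at 121999270 to 122000067, a member had 154, 189, 118 and 86 fragments and a fold of 9.22, 9.59, 2.35 and 2.54. Both kinds of member thus lay within the same gene.

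Around lists of genes chosen for these cells, shares of members were read against the 10.4% of all common regions. The lists were drawn up with earlier results of these data known, and no list was tested. A region counted for a gene when it lay in the body or within 10 kb. The lists of gamma-delta genes, cytokine receptors, naive homing and quiescence, Cd4 and Cd8, T cell receptor signalling and T lineage factors had intervals wholly above 10.4%. The other lists had intervals that include it, whether of T cell genes (Notch and pre-TCR, rearrangement, E proteins) or not. The lists were not matched for position, and the share was 4.48% at gene ends, 13.24% inside genes and 13.16% between genes. The interval of T lineage factors, 13.19 to 22.63, includes the share inside genes, and that of T cell receptor signalling starts close to it, at 13.45. The split by fragments differed between the lists, as given below. Over all members 81.4% had more fragments in DN3 and 13.1% more in naive cells, and the list counts are read against these shares.

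**Figure D5:**
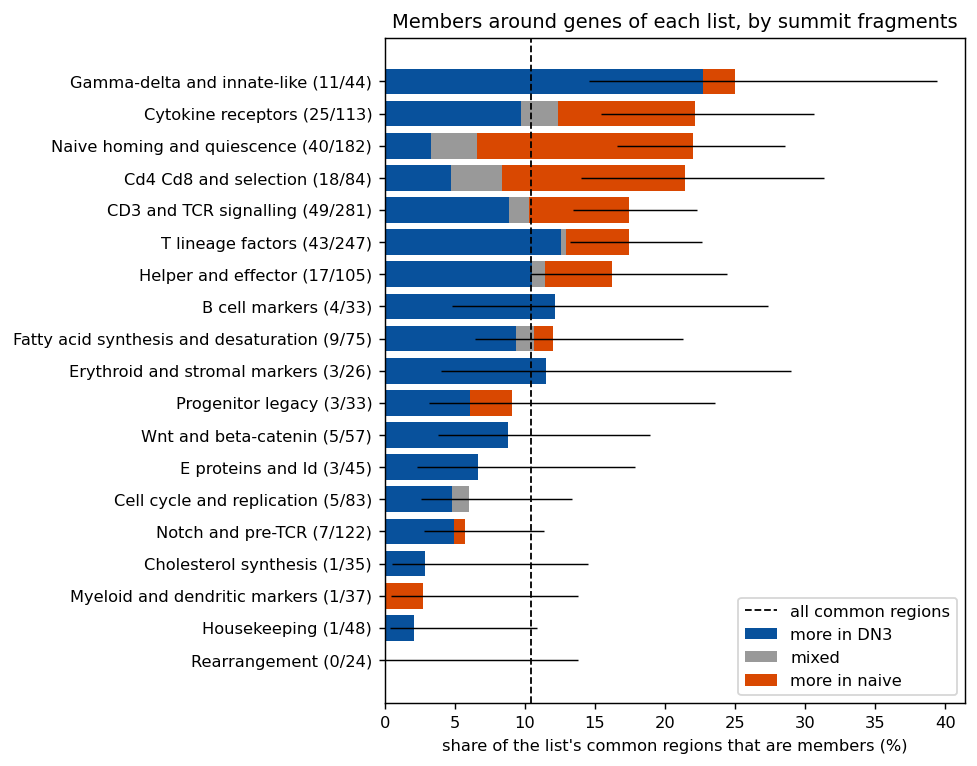
Bars give, for each gene list, the share of its common regions that are members, with members and common regions in brackets, coloured by which cell type had more summit fragments. Black lines are Wilson 95% intervals and the dashed line is the 10.4% of all common regions, and the orange part (more in naive) fills most of the bar for naive homing and quiescence (28 of 40) and little of that for gamma-delta and innate-like genes (1 of 11). Over all members 13.1% had more fragments in naive cells and 81.4% more in DN3.

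Among 34 T lineage transcription factor genes, 20 had a member, and 43 of 247 common regions were members (17.4%). Of the 43, 31 had more fragments in DN3 and 11 in naive cells, or 33 and 7 with the list medians. After the Ikzf1 region given above came one inside Ets1, an ETS factor needed for thymocyte survival. Its fold was 6.26, 6.33, 1.89 and 1.74, with 352, 374, 227 and 128 summit fragments. Bcl11b, the factor that closes T cell commitment, had 3 members. The one on chromosome 12 from 107962904 to 107965295 had a fold of 6.96, 6.64, 2.35 and 2.33 and 239, 233, 143 and 91 fragments. A second Bcl11b member went the other way in fragments, with 301, 232, 583 and 420. Near Tcf7, the gene of TCF-1, a member 8520 bp from the gene had 147, 123, 79 and 42 fragments. A second Tcf7 member, inside the gene, had 382, 397, 589 and 354, which is more in naive cells relative to the genome-wide background. Of the 2 Ikzf1 members, 1 also had more naive fragments. Elf1, another ETS factor, had a member with 98, 84, 76 and 46. Runx1, a factor of both stages, had 4 members among 19 common regions.

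Genes of the CD3 complex and T cell receptor signalling had 49 members among 281 common regions (17.4%), at 21 of 37 genes. Here 25 had more DN3 and 20 more naive fragments, and 33 and 10 when also divided by the list medians. The highest ratio was that of a region inside Ubash3b, a phosphatase that damps receptor signals, with a fold of 10.1, 10.5, 2.87 and 2.78 and 147, 138, 56 and 45 fragments. A region inside Cbl, a ubiquitin ligase of the same pathway, had 294, 244, 28 and 27 fragments, so that its naive peaks were weak. Ptpn6, the gene of the phosphatase SHP-1, had a member at its end with 134, 143, 59 and 42. Lcp2, the gene of the adaptor SLP-76, had one with 332, 335, 62 and 45. All of these had more fragments in both DN3 libraries.

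The members at genes of naive T cell homing and quiescence had mostly more fragments in naive cells. Of 182 common regions 40 were members (22.0%), at 18 of 29 genes. Only 6 of them (15%) had more DN3 fragments, and 28 (70%) had more naive fragments. Divided by the list medians as well, 18 still had more in naive cells and 17 had more in DN3. The member over the end of Ccr7, on chromosome 11 from 99154276 to 99155563, had a fold of 12.7, 13.2, 4.93 and 5.48. Its summit held 381, 346, 741 and 489 fragments, which is 80.7, 77.3, 145 and 134 times the genome-wide background. The local background there was 29.0, 25.3, 150 and 88.4 fragments. The fold thus put DN3 above naive cells, and the fragments put naive cells above DN3. Over the start of Il7r, whose sequence is given above, the fold was 8.43, 8.52, 2.75 and 3.45 and the summit held 133, 126, 189 and 163 fragments.

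Members at other naive markers and quiescence genes followed more than 1 order of fragments, and the markers are named here as such. A member over Klf2, a regulator of S1pr1, had 395, 388, 920 and 627 summit fragments and a fold of 10.3, 9.85, 6.34 and 6.16. The member at S1pr1 with the most fragments had 119, 117, 449 and 337. A member inside Ms4a4b, a tetraspan-like gene of resting T cells, had 51, 39, 46 and 29 fragments, a mixed order. A Bach2 member that had more in DN3, with 74, 64, 30 and 25, stood beside 4 with more in naive cells. Members in Bcl2, the survival gene, were of each kind, and the one with the highest ratio had 62, 66, 67 and 61 fragments.

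Around Cd4, Cd8 and genes of thymic selection, 18 of 84 common regions were members (21.4%), and 11 had more naive fragments against 4 with more in DN3. Divided by the list medians as well, these counts were 8 and 7. Zbtb7b, the gene of the CD4 lineage factor ThPOK, had a member 2091 bp from its end with a fold of 8.07, 7.32, 2.32 and 2.53 and 194, 139, 172 and 130 fragments, a mixed order. Ccr9, the receptor of thymocytes for the thymic and gut chemokine CCL25, had 215, 183, 70 and 33 over its start. Cd5, a brake on receptor signalling, had 194, 202, 342 and 261. A member 3613 bp from Cd8b1, a coreceptor chain gene that naive CD4 cells do not use, had 222, 209, 33 and 27.

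The 13 gamma-delta and innate-like genes had the highest share of the lists, with 11 of 44 common regions (25%, 14.6 to 39.4), and 10 of the 11 had more DN3 fragments. Over all members 81.4% had more DN3 fragments, and so few regions do not set this list apart by fragments. Il2rb, a receptor chain for IL-2 and IL-15, had a member with 176, 144, 61 and 47 fragments. Sox13, a factor of gamma-delta T cells, had one with 260, 227, 30 and 20, and Sox5, its relative, had 4 among 17 common regions. Cd163l1, a scavenger receptor gene of gamma-delta cells, had 374, 385, 93 and 64. At Sox4 the counts were 458, 474, 316 and 236.

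Helper and effector genes had 17 members among 105 common regions (16.2%), 11 with more DN3 fragments. The only common region of Ifng, the cytokine gene, lay over its start and was a member. Its fold was 14.7, 14.7, 5.07 and 5.16 and its summit held 167, 141, 30 and 23 fragments, and in both naive libraries the local background was the genome-wide one. Stat5a, a factor downstream of IL-7, had a member with 133, 146, 33 and 21. Ctla4, the inhibitory receptor, had one with 174, 204, 118 and 116. The members counted for Cxcr6 and Tnfrsf4 had more naive fragments. The first lay inside Fyco1, 99 bp from an end of Cxcr6, and the second at the end of the neighbouring gene Tnfrsf18.

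Of 113 common regions around cytokine receptor genes 25 were members (22.1%), 11 with more DN3 and 11 with more naive fragments, or 15 and 7 when also divided by the list medians. Tgfbr2, a receptor chain for TGF-beta, had 3, and the highest ratio belonged to one with 181, 180, 113 and 81 fragments. Il6ra, the IL-6 receptor chain, also had 3, of which 1 had more DN3 fragments, with 131, 87, 75 and 46, and 2 had more naive fragments. The member counted for Il2rg, the common gamma chain, lay at the end of Foxo4 and had a mixed order, with 81, 82, 94 and 47.

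The lists of Notch and pre-TCR, rearrangement, and E protein and Id genes had shares below 10.4%, with intervals that include it. The 26 Notch and pre-TCR genes had 7 members among 122 common regions (5.74%, 2.81 to 11.4), at Fbxw7, Maml2, Maml3 and Dtx4. The one near Fbxw7, a ubiquitin ligase that degrades active Notch, had 144, 140, 23 and 20 fragments. None of the 24 common regions around the 12 rearrangement genes was a member (interval 0 to 13.8). The E protein and Id genes had 3 of 45 (2.29 to 17.9), and the one inside Tcf12, the gene of HEB, with the higher ratio had 176, 134, 22 and 22. The rule needs a peak in all 4 lists, and the gene-end peaks of Ptcra, Rag2 and Dntt were called in both DN3 lists and in neither naive list. They could therefore not be members. Of 10 DN3 marker genes all had a gene-end peak in both DN3 lists, against 6 and 7 in the naive lists, and 1 (Erg) had a member. Of 9 naive markers 7 had one in both DN3 lists and all 9 had one in both naive lists, and 6 had a member. Over all genes with a common region, 18.9% had one, and so few markers fix no share. By fragments at the highest gene-end summit the DN3 markers did not all go 1 way. Il2ra, the gene of CD25, had 109, 144, 239 and 166, Notch1 481, 468, 809 and 568, and Dtx1 179, 161, 443 and 324. At Ptcra, Rag1, Rag2, Dntt, Notch3, Hes1 and Erg both DN3 libraries held more than both naive ones.

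Shares of members around lipid genes were not set apart from that of all common regions. Fatty acid synthesis and desaturation genes had 9 of 75 common regions (12%, 6.44 to 21.3), near the 10.4% of all, of which 7 had more DN3 fragments. Besides Scd2, there were members inside Elovl5, an elongase, with 202, 164, 49 and 39 fragments, and inside Acsl1, a long-chain acyl-CoA synthetase, with 270, 254, 17 and 13. The Acsl1 summits rose on a local background of 41.7 and 39.6 fragments in DN3 and on the genome-wide one in naive cells, so that its fold of 6.34, 6.29, 2.94 and 3.01 differed less than its fragments. Fads1, a desaturase of polyunsaturated fatty acids, had 2 members. Cholesterol synthesis genes had 1 member among 35 common regions (2.86%, 0.506 to 14.5).

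Scd1 itself, the gene missing in the deficient mice, had 1 member, over its higher-coordinate end on chromosome 19 from 44406551 to 44408833. Its fold was 9.41, 8.86, 6.69 and 6.37, a ratio of 1.54, close to the threshold. The summit held 124, 85, 50 and 39 fragments. The Scd1-deficient value over the control value was 0.968 in DN3 and 0.92 in naive cells. Since the deleted part is not given, this region is no check of the genotype.

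The remaining lists were small. Cell cycle and replication genes had 5 members of 83 common regions (6.02%), among them one inside Ccnd3, the cyclin of thymocyte expansion, with 455, 415, 163 and 139 fragments. Wnt and beta-catenin genes had 5 of 57, including Tcf7l2 with 78, 69, 38 and 32. Housekeeping genes had 1 of 48 (2.08%), which was counted for Ppia and lay at Zmiz2. Progenitor genes had 3 of 33, at Mecom, Cd34 and Trib2, and the Trib2 member had more naive fragments, with 355, 380, 809 and 555.

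Markers of other cells were checked because the lineage depletion and the bead kit may leave some behind. B cell markers had 4 members of 33 common regions, at Cd74, H2-Ab1, Cr2 and Ebf1, all with more DN3 fragments, as had 81.4% of all members. The gene-end peaks of the B cell markers varied. That of Ms4a1 was called in none of the 4 lists, and Cd79b had one in all 4. Cd79a, a chain of the B cell receptor, had 0, 22, 364 and 288 fragments at its highest summit, and Cd22, an inhibitory receptor of B cells, had 0, 0, 24 and 13. The Cr2 member, over the start of that complement receptor gene, had 229, 203, 77 and 68 fragments, and the Ebf1 member 223, 215, 45 and 58. Myeloid markers had 1 member of 37, at Itgam, with 46, 38, 54 and 53, and erythroid and stromal markers had 3 of 26, at Cdh5 and Col1a1. Over the 7 B cell markers the median of the highest gene-end summit was 0 times the genome-wide background in both DN3 libraries and 4.69 and 3.56 times in naive cells. Over the 6 myeloid markers it was 0, 4.81, 0 and 0 times. Over the 7 markers of stroma and epithelium it was 7.63, 4.47, 0 and 0 times, with 4, 4, 1 and 1 of them called. Among these, Krt8, a keratin gene, had 61, 62, 0 and 0 fragments and Foxn1, the factor of thymic epithelium, 72, 69, 0 and 0. Epcam was called in all 4 lists, with 177, 155, 110 and 128, and Krt5 and Pecam1 in none. Pdgfra had 36, 0, 0 and 0 and Cdh5 had 0, 20, 0 and 0. The median of this list was thus higher in both DN3 libraries, as the members were, though its genes differed. The part of such cells in the members was not tested.

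The genotypes were compared within a cell type, as the Scd1-deficient value divided by the control value. The rule took the lower DN3 and the higher naive value, so it had used these values too, and small differences cannot be read from members chosen this way. In DN3 the median ratio was 1.018 over the members (95% interval 1.014 to 1.021, over regions) and 1.032 over all common regions, but other scalings and choices of member put it between 0.98 and 1.04, and below 1 in 3 of them. In naive cells it was 1.08 (1.075 to 1.086) against 1.055, and between 1.03 and 1.19 under the alternatives. The intervals describe the spread over regions of single libraries. In DN3, 3 members were at least 1.5 times higher without Scd1 and 7 were as much lower, against 0.425% and 0.502% of all common regions. In naive cells 247 members (6.32%) were at least 1.5 times higher without Scd1, against 3.96% of all common regions, and 36 (0.921%) were as much lower, against 0.513%.

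The members that differed most between genotypes in naive cells are named for the size of that gap. The widest higher value without Scd1 was at a region inside Smarca2, a chromatin remodeller, with a fold of 8.98, 9.56, 1.63 and 4.95 and 108, 114, 65 and 50 fragments. In naive cells the control had 65 fragments over a local background of 39.5, and the Scd1-deficient library had 50 over 9.30. These counts are not scaled for the genome-wide backgrounds of the naive libraries, 5.12 and 3.65, so they give no order of the genotypes. A member at Gm1673 had 15 fragments in the naive control and 35 without Scd1. One near Cstdc2 had 18 and 41. On the other side a member inside Sdccag8 had 40 and 14. Members with fewer naive fragments than the median had an interquartile range of the naive genotype ratio of 0.945 to 1.27, and the others one of 0.977 to 1.18.

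Of the 32619 promoter windows in the RefSeq table, which run from 250 bases before to 50 after a start, 13449 overlay a common region and 444, of 415 genes, overlay a member. The windows over members were less rich in CpG. Their median observed to expected CpG ratio was 0.514 against 0.773 over common regions, and 40.3% (35.9 to 44.9) reached 0.6 against 73.5%. GC content had a median of 57.7% against 61.7%. Windows over the mirrored naive set had a CpG ratio of 0.486 and reached 0.6 in 41.5%, values close to those of the members.

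Short motifs followed these base compositions in part. The ETS letters CCGGAA, which hold a CpG, stood in 12.8% of the windows over members and in 28.2% of those over common regions. Among windows with a CpG ratio of at least 0.6 they stood in 15.6% and 32.9%, and among the others in 10.9% and 15.2%. The E box letters CACCTG, read by E proteins and by ZEB factors, stood in 28.2% (24.2 to 32.5) of member windows and 18.5% of common windows. This gap was present at low CpG (30.2% and 23.4%) and at high CpG (25.1% and 16.7%). Windows over the mirrored naive set held CACCTG in 24.5% (17.3 to 33.5) and CCGGAA in 17.0% (11.02 to 25.25), so the latter too was below its share over common regions. The other E box, CAGCTG, stood in 18.2% and 14.8%. The RUNX letters TGTGGT stood in 16.9% and 12.2%, with 24.5% and 19.1% at low CpG but 5.59% and 9.76% at high CpG. All 32619 windows held CACCTG in 20.3%, TGTGGT in 16.6% and CCGGAA in 15.0%.

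Of the other letters, those of SP mostly followed the CpG content and those of KLF differed mainly at high CpG. The SP letters GGGCGG stood in 51.4% of member windows and 65.3% of common windows, but in 73.2% and 74.8% at high CpG and in 36.6% and 39.0% at low CpG. The KLF letters CCACCC stood in 42.1% and 37.0%, with 48.6% and 36.0% at high CpG but 37.7% and 39.7% at low CpG. The RBPJ letters TGGGAA stood in 26.8% and 22.0%, and the TCF letters CTTTGA in 13.5% and 11.5%. The GATA letters AGATAA stood in 6.98% and 5.82%, and the AP-1 letters TGANTCA in 5.18% and 4.49%. The CRE letters TGACGT stood in 7.88% and 12.1% and the NFY letters CCAATN in 33.3% and 36.9%. Windows over the mirrored naive set held GGGCGG in 44.3%, CCACCC in 43.4%, TGGGAA in 26.4% and AGATAA in 12.3%. The SP, KLF and RBPJ shares were therefore not particular to the members. Both strands were searched and overlaps between motifs were allowed.

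The 10 members with the highest ratios within 1 kb of a gene end, start or not, had mostly few fragments in naive cells. The Igsf10 member had 106, 106, 19 and 15 summit fragments and the Dnah7c member, at an axonemal dynein gene, 102, 111, 23 and 14. Fam13a had 141, 133, 22 and 14, Zfp820, a zinc finger gene, 116, 111, 24 and 21, and Steap1, a metalloreductase gene, 95, 82, 19 and 19. In 9 of the 10 both DN3 libraries were above both naive ones, and the Ubac2 member was the exception. Exact Poisson 95% intervals for the Igsf10 counts were 86.8 to 128 in both DN3 libraries, and 11.4 to 29.7 and 8.4 to 24.7 in the naive ones. Such intervals cover counting error only, since duplicates made by PCR may be among the fragments. Igsf10 was named for its high ratio, which rests on these same counts, so the gap between the intervals tests nothing.

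Some genes held members and regions of the mirrored kind. Of the 2844 genes with a member, 341 (12%) also had a common region of the mirrored naive set. Over all 15026 genes with a common region, 891 (5.93%) had one. A gene with more common regions can more easily hold either kind, and these shares were not matched for that number or for gene length. Foxp1 had 7 and 2 among 39 common regions, Bcl2 4 and 2 among 17, and Tgfbr2 3 and 3 among 12. Hdac4, a histone deacetylase gene, had 2 and 4 among 19. At Nfatc2, a factor of calcium signalling, the counts were 4 and 2 among 13, and at Ikzf3, the gene of Aiolos, 3 and 2 among 12. These genes were chosen after their counts were seen.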

How the data were processed

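ATAC-seq peak lists of 4 libraries were used, 1 per genotype and cell type, with groups taken from the titles. The submitters' processing notes name Trimmomatic, BWA and MACS2 and the build mm10, with no versions. For MACS2 settings, duplicate handling and any Tn5 shift the sources used here say nothing. The narrow peak lists were deposited per library. Each deposited peak has a score, a fold (the ratio of summit fragments to local background, each raised by 1), a −log10 p, a −log10 q and a summit position, all the authors' values. The lists held 76828, 76450, 46585 and 51309 peaks, with a highest q of 0.0477 to 0.0489. Read totals were not used here.

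Summit fragments and local background were recovered as whole fragments and a Poisson mean from the fold and the −log10 p for 100% of peaks, within a tolerance of 0.05. Steps were tested on simulated data. Positions and genes came from the RefSeq table of GRCm38.p6 (21631 protein-coding genes), which gives no exons. Motifs were searched in RefSeq promoter windows, since no genome was used. All 409 symbols of the 19 gene lists matched. Shares have Wilson 95% intervals, which cover counting error only, and a library that is more enriched or deeper lists more weak peaks.

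The members and lists were chosen with earlier results of these data known. Named were the 20 members with the highest ratio, the 10 highest at gene ends, the 10 genes with the most members, up to 5 genes per list, the 5 largest groups, 3 regions on each side of the threshold and Scd1. Some named genes and groups are not reported here. Alternatives changed the scaling, the peaks, the overlap, the threshold and the libraries used. Python 3.11.15, numpy 2.4.6, pandas 2.3.3, scipy 1.17.1 and matplotlib 3.10.9 were used.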

Additional observations from a re-analysis of the deposited data

Results flagged for a closer look

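In 4 members named for a genotype difference of at least 1.5 times, the Scd1-deficient value lay below the control in one cell type and above it in the other. In DN3 the Scd1-deficient over control ratio was 0.602 at the member inside Enox1, against 1.69 in naive cells. It was 0.625 near Zfp592, against 1.08, and 0.626 near Ssbp2, against 1.63. In naive cells it was 0.556 at the member inside Ptges, against 1.013 in DN3. The medians over members were 1.018 in DN3 and 1.08 in naive cells. The values above 1 at Zfp592 and Ptges were close to these medians and show no opposite change there. Summit fragments were 65, 36, 17 and 23 at Enox1, and 198, 174, 47 and 20 at Ptges, in the order DN3 control, DN3 Scd1-deficient, naive control and naive Scd1-deficient. With 1 library per group the difference between the cell types was not tested.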

How the results depend on the processing

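The rule took 3909 members. It took 2130 with folds not divided by the list median, 2491 divided by the median over common regions, 2448 with stricter peaks, 1251 at a threshold of 2, 7437 from the control libraries alone, and 10119 by summit fragments over background and list median. By fragments over background alone it took 5411, of which 2455 were among the members (62.8% of the members and 45.4% of the alternative). The share at gene ends, 13.6%, was 12.2% at a threshold of 2, 15.2% from controls alone, and 19.04% and 18.57% by fragments over background without and with the list median, each below the 31.6% of all common regions. The Scd1-deficient over control median of members in DN3, 1.018, fell below 1 with undivided folds (0.9999), controls alone (0.9976) and fragments over background (0.9797). It was 1.002 with the median over common regions, 1.024 at a threshold of 2, 1.042 from Scd1-deficient libraries alone and 1.012 by fragments over background and list median. In naive cells, 1.08 became 1.107, 1.031, 1.094 (equal list lengths), 1.068, 1.174 (controls alone), 1.042 (Scd1-deficient alone), 1.193 and 1.177 (fragments, without and with the list median), the first 2 with undivided folds and the median over common regions and the fourth at a threshold of 2. The share of members with more naive fragments, 13.1%, was 6.17% divided by the list median, 16.0% with controls alone and 19.7% with Scd1-deficient libraries alone. With 1 genotype alone, 1 naive library was set against 1 DN3 library over more regions, so those shares are a looser measure than the 13.1%. The cause of these shifts was not tested. The fragment alternatives were chosen after seeing the data. The other 19 values kept their direction and stayed within the limits set for them. Without replicates a genotype or cell type difference cannot be set against replicate spread, and a naive peak of few fragments fixes a fold loosely. No paired analysis was possible because each group holds 1 library and the labels give no replicate numbers.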

Other observations

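Of 1005 microRNA hairpins in the RefSeq table, 122 lay in a common region and 7 of these (5.74%) in a member, against 10.4% of all common regions. They were Gm51287, Mir138-2, Mir5618, Mir1943, Mir6973a, Mir6993 and Mir3086. The highest ratio, 2.11, was that of the member over Mir5618. Of the 7, 6 had more summit fragments in both DN3 libraries, as had 81.4% of all members, and the order at Mir6973a was mixed.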
